A study of Mus musculus with 12 samples.

Results

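The genes described here are 36 enzymes and regulatory subunits of purine metabolism in the mouse, taken by name from a list. The list covers the supply of phosphoribosyl pyrophosphate (PRPP), the synthesis of inosine monophosphate (IMP) and its conversion to AMP and GMP. It also covers salvage, deamination, dephosphorylation, and the formation and breakdown of urate. This list and those of flanking genes were chosen with earlier results of these data known. Shares of listed genes set beside those of all genes are therefore descriptive only. Of the 36 names, 34 matched 1 row each among the 33188 genes of the deposited expression table; Allc and Urad matched no row under these names and were not analysed here. RNA from whole kidney of wild-type mice was sequenced in 12 libraries, 4 in each of 3 groups. CTL libraries came from control mice, HUA libraries from mice made hyperuricemic with potassium oxonate and hypoxanthine, and XZSW libraries from mice with the same induction that also received Xin-Zi-Sheng-Wan decoction, a Chinese herbal preparation. HUA and XZSW thus share both inducing agents, and CTL carries neither by its label. The labels used here give no strain, sex, age, dose or duration and leave unsaid whether the libraries within a group are different animals; the p-values then reflect the spread among these libraries alone, which could be technical. The design text states the aim as evaluating what the decoction does to kidney injury in this model.

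Purine nucleotides are built in cells in 2 ways. In de novo synthesis, PRPP is converted stepwise to IMP, the branch point from which AMP and GMP are made; in salvage, free bases and nucleosides are joined again to PRPP or phosphate groups. Breakdown removes the phosphate and amino groups, splits the nucleosides to hypoxanthine and guanine, and ends in xanthine dehydrogenase, which makes urate. Most mammals oxidise urate further with uricase, an enzyme of the liver. Potassium oxonate inhibits uricase and hypoxanthine is a substrate of xanthine dehydrogenase, so the inducing agents act at the last steps of the pathway listed here.

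The libraries held between 51643999 and 74288100 counts each. Expression levels are given as deposited FPKM (fragment counts divided by transcript length in kilobases and by library size), and changes as log2 changes of the deposited counts fitted with edgeR's quasi-likelihood test over 19772 genes, with libraries scaled by trimmed mean of M values (TMM). "Rose" and "fell" denote a Benjamini-Hochberg adjusted p under 0.05 in that test. SE was not estimated by the fit. It was back-calculated as the absolute log2 change, which carries edgeR's prior count, divided by the square root of the F statistic. The 95% intervals use this SE with the same t quantile of 2.16 (13.2 degrees of freedom) for every gene. Both are therefore approximate, and no call rests on them. FPKM carries no TMM scaling, and the choice matters here: with library totals in place of TMM the median log2 change of all genes moved by 0.33 for HUA against CTL, by -0.17 for XZSW against HUA and by 0.16 for XZSW against CTL. Differences of HUA from CTL read from FPKM are therefore more positive than the fitted ones. On the TMM scale HUA overlapped CTL for Prpsap1, Adss, Nt5c, Nt5c2, Nt5c3b and Pnp, which lay wholly above CTL in FPKM. The 12 libraries also differed in how counts depended on the GC content of genes. This dependence was taken relative to the CTL mean, so the slopes of the CTL libraries cancel out by construction. Libraries with a steep dependence numbered 0 of 4 in CTL, 3 of 4 in HUA and 2 of 4 in XZSW. The difference is therefore partly confounded with that between CTL and the other groups, and its values are given further on. Whether it is technical or follows expression was not tested.

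The labelled tissue was checked against its markers: the 8 proximal tubule markers summed to 1494 to 1862 FPKM in CTL, and none was at 0. The same sum was 326 to 1192 FPKM in HUA and 1660.3 to 1881 in XZSW; 6 of the 8 genes fell with induction, and the contrast of XZSW to HUA had 5 that rose. Macrophage markers summed to 17.5 to 34.5 FPKM in CTL, 138 to 230.4 in HUA and 32.0 to 63.6 in XZSW, with 6 of 8 genes rising in HUA against CTL and 4 falling in XZSW against HUA. Fibroblast and smooth muscle markers stood at 10.2 to 14.2, 44.1 to 116 and 8.47 to 40.1 FPKM in the same order, and markers of cycling cells at 1.28 to 2.36, 3.52 to 18.7 and 0.889 to 3.65 FPKM. Distal tubule and collecting duct markers summed to 297 to 361 FPKM in CTL, 198 to 374 in HUA and 406 to 798 in XZSW, higher in XZSW than in every other library. The share of counts from mitochondrial genes was 11.7 to 14.9% in CTL, 7.85 to 11.3% in HUA and 13.5 to 17.2% in XZSW, lower in HUA than in both other groups. These values differed over the same groups as the purine genes below, and their part in those changes was not tested. In bulk tissue, fewer cells of a type and less RNA per cell cannot be told apart.

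Of the 34 genes with a row, 33 passed the filter on low counts; Ampd1, the AMP deaminase of skeletal muscle, did not. In HUA against CTL 14 of the 33 changed (42.4%), against 27.8% of all genes tested. Across the pathway 8 enzymes rose, Ampd3, Nt5c, Impdh1, Xdh, Atic, Prps1, Impdh2 and Uox (24.2%, against 14.9% of all genes), and 6 fell, Adk, Prps2, Paics, Prpsap2, Nt5c3 and Gmps (18.2%, against 12.8%). The median log2 change of the members was 0.06, against 0.06 for all genes, and their median absolute log2 change 0.45 against 0.50. With library totals as the scaling, 16 members changed (48.5%, against 35.9% of all genes): 15 rose (45.5%, against 29.2%), the same 8 with Adss, Aprt, Entpd1, Nt5c2, Nt5c3b, Pnp and Prpsap1, and only Adk fell (3.03%, against 6.68%). The count of 14 dropped to 9 without CTL2 and to 8 without HUA3.

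In XZSW against HUA 8 of 33 members changed (24.2%, against 15.4% of all genes). Of these, 7 fell, Nt5e, Prps1, Impdh2, Pnp, Atic, Adss and Nt5c2 (21.2%, against 8.34% of all genes), and Adk rose (3.03%, against 7.09%). The median log2 change was -0.17 for the members and 0.01 for all genes. Under library totals 10 members fell (30.3%, against 13.7% of all genes), Ampd3, Hprt and Nt5c beside the 7, and Adk no longer passed, so that 0 rose (4.23% of all genes) and 10 changed in all (18% of all genes). The count was 3 without HUA3, 3 without XZSW2 and 5 without XZSW4, and 2 when the model was fitted on the 8 libraries of these groups alone.

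In XZSW against CTL 3 of 33 members changed, 9.09% against 4.99% of all genes, and all 3 fell (Nt5e, Paics and Gmps; 2.27% of all genes fell). The edgeR test called no member as rising, against 2.72% of all genes; at an unadjusted p under 0.05 there were 4 (Ampd3, Pfas, Uox and Xdh), of which DESeq2 called 3 (Ampd3, Uox and Xdh) and limma on log2(FPKM + 1) called 3 (Ampd3, Pfas and Xdh). DESeq2 called 7.14% of all genes as rising here and limma 7.17%. Under library totals 3 rose (9.09%, against 6.18% of all genes) and 1 fell (3.03%, against 1.13%), 4 in all (12.1%, against 7.31%). Nt5e was the member still called when any single library of CTL1, CTL2, CTL3, CTL4, XZSW1, XZSW3 or XZSW4 was left out, the count then being 1. The comparisons share libraries: CTL, HUA and XZSW each enter a pair of them, so their changes are not independent.

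**Figure D1:**
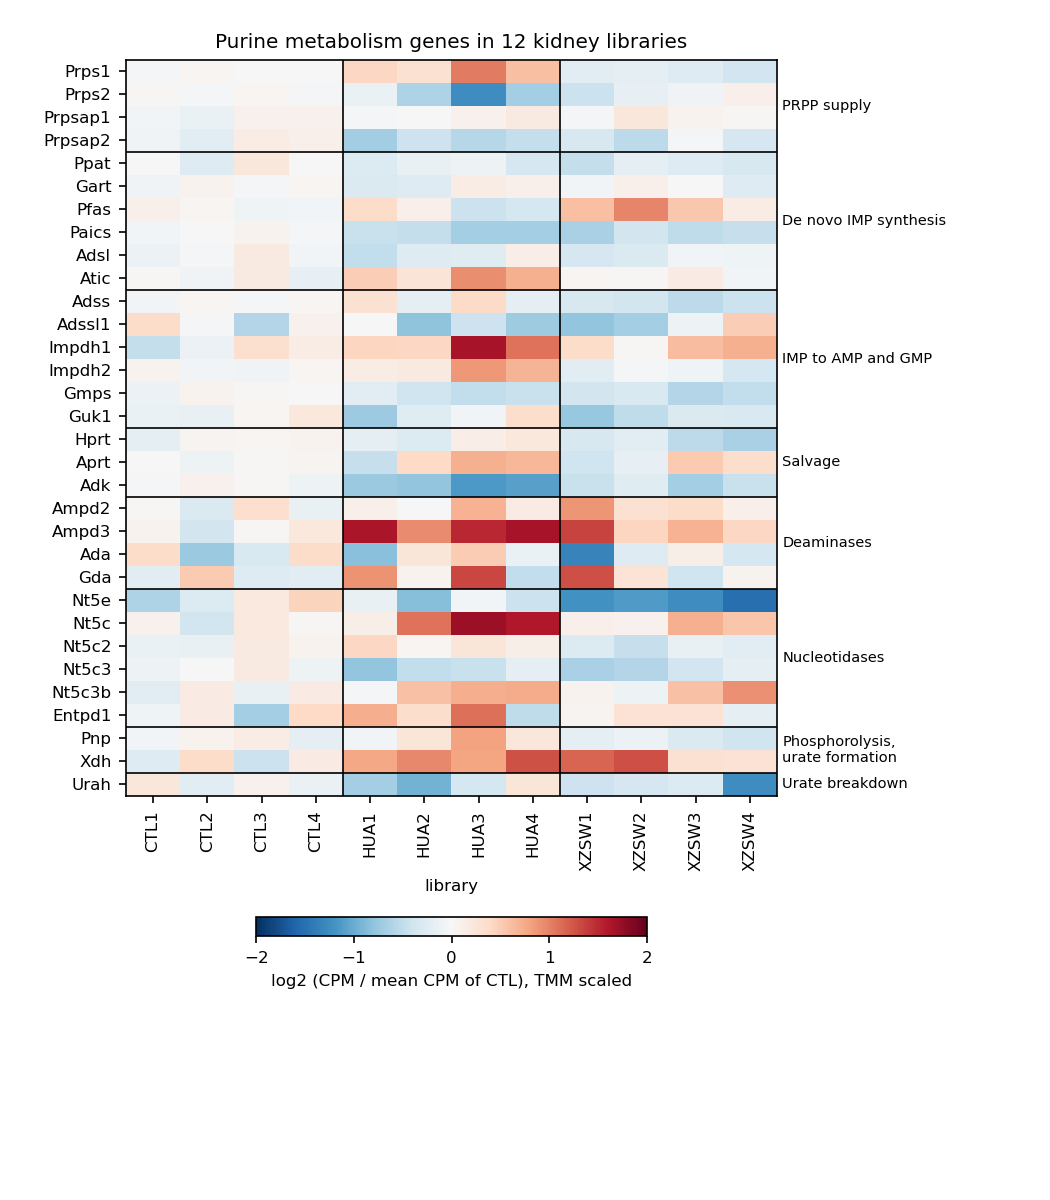
Levels of 32 purine genes (rows, grouped by branch) in the 12 libraries (columns), as log2 of CPM (counts scaled to library size with TMM) over the CTL mean; Uox and Ampd1 are left out for counts of 0. Prps1, Atic, Impdh2 and Ampd3 are higher in the 4 HUA libraries than in CTL, while Adk is lower.

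**Figure D2:**
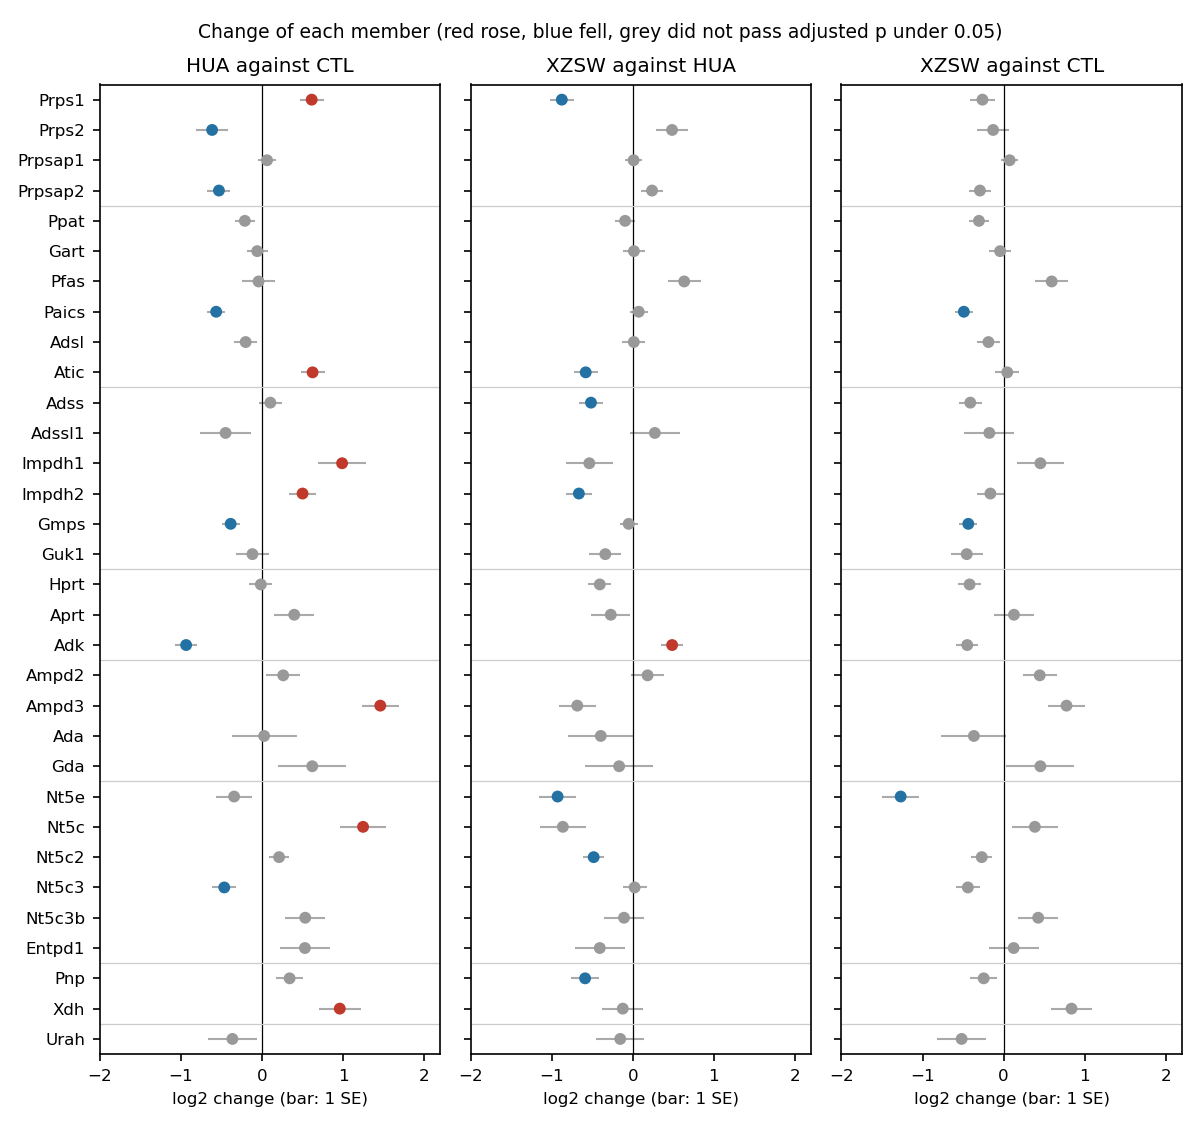
Fitted log2 change of each of 32 tested purine genes in the 3 comparisons, with a bar of 1 SE, back-calculated from the F statistic. Uox is off the scale and not drawn. Colour marks genes that rose, fell or did not pass at an adjusted p under 0.05. Changes lie on both sides of 0 in HUA against CTL and 7 genes fell in XZSW against HUA.

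The sequences shown are the 250 bases before a RefSeq transcription start of Prps1, Atic and Ampd3. They were picked because, of the members that rose in HUA under each of the 23 alternative settings tried, these have an entry in the RefSeq promoter table of GRCm38.p6; Xdh, the other such gene, has none. Of the 3 Ampd3 windows the one with CACGTG is shown; the other two hold CCAAT. Capitals mark a CCAAT box in Prps1 and the E-box letters CACGTG in Atic and Ampd3, 1 motif per gene. The Atic stretch also holds CCAAT, at -224 from the start, left in lower case.
Prps1, chrX:140456353-140456602, plus strand: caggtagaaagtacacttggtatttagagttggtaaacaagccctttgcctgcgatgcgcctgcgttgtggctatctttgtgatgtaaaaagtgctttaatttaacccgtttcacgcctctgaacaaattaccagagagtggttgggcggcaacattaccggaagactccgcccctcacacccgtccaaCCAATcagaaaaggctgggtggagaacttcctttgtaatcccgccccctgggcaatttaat
Atic, chr1:71556906-71557155, plus strand: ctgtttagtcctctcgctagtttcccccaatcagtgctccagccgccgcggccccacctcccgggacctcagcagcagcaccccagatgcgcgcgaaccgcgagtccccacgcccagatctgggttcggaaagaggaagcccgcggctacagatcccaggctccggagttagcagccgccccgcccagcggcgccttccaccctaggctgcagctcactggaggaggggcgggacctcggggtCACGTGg
Ampd3, chr7:110772354-110772603, plus strand: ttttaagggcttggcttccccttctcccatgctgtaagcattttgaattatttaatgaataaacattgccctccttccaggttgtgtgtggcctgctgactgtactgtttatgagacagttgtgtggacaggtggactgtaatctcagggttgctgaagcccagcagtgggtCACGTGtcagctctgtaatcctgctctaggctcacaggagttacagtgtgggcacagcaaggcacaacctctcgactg

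Windows of 300 bases, from 250 before to 50 after a start, were found for 33 of the 36 names, 49 windows in all among 32851; Pfas, Xdh and Ampd1 had no entry. Searched on both strands, CACGTG occurred in windows of Ampd3, Atic, Impdh2, Nt5c2 and Paics, 10.2% of the member windows against 7.15% of all windows. CCAAT occurred in 34.7% against 37.4%. The AP-1 letters TGANTCA were found in 6.12% against 7.81%, in Adssl1, Ampd3 and Aprt, and the antioxidant response core TGACNNNGC in 10.2% against 12.4%. The cyclic AMP response letters TGACGTCA were in none of the 49 windows and in 1.79% of all windows. Of the genes with CACGTG, Atic, Ampd3 and Impdh2 rose in HUA and Paics fell, so members holding these letters moved in both directions. A match is a stretch of letters, not a bound site.

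Among the PRPP synthetases the isoforms moved apart in HUA. Prps1 (chrX:140456613-140476140), the widely expressed synthetase that makes PRPP from ribose 5-phosphate, stood at 10.9, 10.8, 11.5 and 11.7 FPKM in CTL, 18.8, 17.5, 30.0 and 21.7 in HUA and 11.5, 10.7, 11.4 and 10.3 in XZSW. Every HUA library lay above every CTL and every XZSW library. Prps1 rose 1.53-fold in HUA (log2 change 0.61 ± 0.15 SE, adjusted p = 0.00813) and fell 1.83-fold in XZSW against HUA (log2 change -0.87 ± 0.15 SE, adjusted p = 0.00287). XZSW and CTL overlapped in FPKM (log2 change -0.26 ± 0.15 SE, adjusted p = 0.317; the 95% interval of the log2 difference was -0.58 to 0.06).

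Prps2 (chrX:167346322-167382749), the second synthetase, stood at 11.0, 10.1, 11.4 and 10.9 FPKM in CTL, 12.5, 8.92, 5.95 and 8.68 in HUA and 9.63, 10.4, 12.6 and 14.0 in XZSW. In FPKM HUA1 was above all CTL libraries and the other HUA libraries below them, with HUA3 lowest. On the TMM scale HUA1 differed from the CTL mean by -0.13 (log2). The fitted change was -0.61 ± 0.19 SE in HUA against CTL (adjusted p = 0.0305), and the call was lost without CTL1, CTL2, CTL3, CTL4, HUA2, HUA3, HUA4 or XZSW3 (adjusted p = 0.0502 to 0.0823). The ratio of Prps1 to Prps2 FPKM was 0.993 to 1.07 in CTL, 1.50 to 5.04 in HUA and 0.738 to 1.19 in XZSW. A ratio within a library does not depend on the scaling to library size, and the HUA ratios all lay above those of the other groups, by the most in HUA3. This ratio and those below still carry any dependence of counts on GC or transcript length, which differed between libraries. The longest transcripts of Prps1 and Prps2 have 1965 and 3699 bases.

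The PRPP synthetase-associated proteins bind the synthetases and limit their activity. Prpsap2 (chr11:61729650-61762088) had 9.33, 8.07, 11.3 and 11.0 FPKM in CTL, 7.71, 9.40, 8.71 and 9.08 in HUA and 9.43, 7.38, 11.8 and 9.38 in XZSW. The groups overlapped on this scale, and the TMM-scaled change in HUA was -0.53 ± 0.14 SE (adjusted p = 0.0136), a call lost without HUA3 (adjusted p = 0.0504). Its partner Prpsap1 ranged from 10.7 to 13.7 FPKM in CTL from 15.4 to 18.0 in HUA and from 14.6 to 16.0 in XZSW, with a fitted log2 change of 0.06 ± 0.11 SE that did not pass.

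Within de novo IMP synthesis the last enzyme and the middle one went opposite ways. Atic (chr1:71557150-71579631) carries out the last pair of reactions to IMP. It stood at 2.17, 1.93, 2.51 and 1.99 FPKM in CTL, 3.83, 3.26, 5.34 and 4.50 in HUA and 2.62, 2.36, 2.94 and 2.48 in XZSW. The HUA libraries were above all CTL and all XZSW libraries, and XZSW overlapped CTL. Atic rose 1.54-fold in HUA (log2 change 0.63 ± 0.15 SE, adjusted p = 0.00726) and fell 1.49-fold in XZSW against HUA (log2 change -0.58 ± 0.15 SE, adjusted p = 0.0201). The call in XZSW against HUA was lost without HUA3, XZSW2 or XZSW4 (adjusted p = 0.0525 to 0.0589).

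Paics (chr5:76951307-76967509), which carboxylates the imidazole ring and joins aspartate to it, was the most abundant purine gene in CTL. It stood at 68.2, 67.3, 77.5 and 72.4 FPKM in CTL, 66.1, 64.8, 58.2 and 56.7 in HUA and 54.5, 59.7, 61.5 and 61.8 in XZSW. Both HUA and XZSW lay below CTL in every library. Paics fell 1.48-fold in HUA (log2 change -0.56 ± 0.11 SE, adjusted p = 0.00291) and 1.40-fold in XZSW against CTL (log2 change -0.49 ± 0.11 SE, adjusted p = 0.0314). Under library totals its change in HUA was -0.24 with adjusted p = 0.106 (alternatives ran from 2.7e-06 to 0.183), and the XZSW call was lost without CTL1, CTL2, CTL3, CTL4, XZSW1, XZSW3 or XZSW4 (adjusted p = 0.0632 to 0.0958).

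Ppat, the amidotransferase that commits PRPP to purine synthesis, lies head to head with Paics on chr5; their annotated exons share 272 bases on opposite strands. The libraries were made strand-specific per the labels, but how the counting used strand is not given in the sources used here. Ppat ranged from 5.54 to 8.45 FPKM in CTL, 7.13 to 8.54 in HUA and 6.04 to 7.22 in XZSW, and its log2 change in HUA was -0.21 ± 0.13 SE, which did not pass. Paics exceeded Ppat 9.16 to 12.2-fold in CTL, 6.81 to 9.04-fold in HUA and 8.53 to 9.16-fold in XZSW, each HUA ratio being below each CTL ratio.

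Gart, Pfas and Adsl, which catalyse the steps around Paics, passed in none of the 3 comparisons. Gart ran from 5.83 to 6.52 FPKM in CTL, from 6.32 to 8.93 in HUA and from 6.17 to 7.57 in XZSW; Adsl ran from 5.14 to 6.52, 5.02 to 7.81 and 4.93 to 6.63 in the same order. Pfas was 1.60 to 1.75 FPKM in CTL, 1.60 to 2.69 in HUA and 2.18 to 3.52 in XZSW, so that every XZSW library was above every CTL library. Its adjusted p was 0.0505 in XZSW against HUA (log2 change 0.63 ± 0.20 SE) and 0.102 in XZSW against CTL (0.59 ± 0.20 SE).

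From IMP, the branch to GMP starts with IMP dehydrogenase. Impdh2 (chr9:108560286-108565584), the more abundant form here, stood at 8.20, 7.15, 7.70 and 8.38 FPKM in CTL, 10.9, 11.2, 18.7 and 16.1 in HUA and 8.11, 8.31, 9.02 and 7.35 in XZSW. All HUA libraries exceeded all CTL and XZSW libraries, HUA3 and HUA4 by the most. Impdh2 rose 1.42-fold in HUA (log2 change 0.50 ± 0.16 SE, adjusted p = 0.0355) and fell 1.58-fold in XZSW against HUA (log2 change -0.66 ± 0.16 SE, adjusted p = 0.017). The rise in HUA was no longer called without CTL1, CTL2, CTL3, CTL4, HUA3 or HUA4 (adjusted p = 0.0652 to 0.0898); the fall in XZSW was called with each library left out in turn.

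Impdh1 (chr6:29200434-29216364), the second form of the enzyme, stood at 0.715, 0.874, 1.29 and 1.16 FPKM in CTL, 1.71, 1.69, 4.10 and 2.74 in HUA and 1.55, 1.10, 1.88 and 1.96 in XZSW. It rose 1.98-fold in HUA (log2 change 0.99 ± 0.29 SE, adjusted p = 0.0235), a call that was lost without CTL1, CTL2 or HUA3 (adjusted p = 0.0635 to 0.0777). With the GC split of the libraries in the model the change was 0.54 with adjusted p = 0.266 (alternatives ran from 0.00498 to 0.266). Impdh1 was 0.46 (log2, TMM scale) above CTL in HUA1 and 1.08 above it in the mean of the other HUA libraries, and its transcript holds 58.9% GC. XZSW libraries overlapped both other groups. The ratio of Impdh2 to Impdh1 FPKM was 5.96 to 11.5 in CTL, 4.56 to 6.61 in HUA and 3.76 to 7.54 in XZSW, and these ranges overlapped.

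Gmps (chr3:63976106-64022579), which aminates XMP to GMP, stood at 6.36, 6.94, 7.33 and 7.27 FPKM in CTL, 7.60, 6.66, 6.44 and 6.51 in HUA and 6.46, 6.06, 5.68 and 5.92 in XZSW. HUA and CTL overlapped in FPKM, whereas the TMM-scaled change was -0.39 ± 0.11 SE (adjusted p = 0.0206). In XZSW against CTL the change was -0.44 ± 0.11 SE (adjusted p = 0.0427). With library totals Gmps changed by -0.06 with adjusted p = 0.706 (alternatives ran from 0.00517 to 0.837) in HUA and by -0.28 with adjusted p = 0.114 (alternatives ran from 0.00462 to 0.301) in XZSW against CTL. The first call was also lost without CTL2, CTL3, HUA2, HUA3 or HUA4 (adjusted p = 0.0524 to 0.0725) and the second without CTL1, CTL2, CTL3, CTL4, HUA2, XZSW1, XZSW2, XZSW3 or XZSW4 (adjusted p = 0.054 to 0.125).

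Adss (chr1:177762962-177796511), the first enzyme of the branch to AMP, stood at 18.6, 18.8, 19.5 and 20.7 FPKM in CTL, 30.4, 21.6, 32.9 and 21.6 in HUA and 18.5, 16.3, 16.4 and 17.1 in XZSW. HUA lay above both other groups in FPKM, with HUA1 and HUA3 highest, and XZSW lay just below CTL. On the TMM scale Adss fell 1.43-fold in XZSW against HUA (log2 change -0.52 ± 0.14 SE, adjusted p = 0.0294), while HUA against CTL gave 0.10 ± 0.14 SE (adjusted p = 0.639). The call was lost without HUA3, XZSW2, XZSW3 or XZSW4 (adjusted p = 0.0623 to 0.0751). The ratio of Adss to Gmps FPKM, the entry to the AMP branch over the last step of the GMP branch, was 2.66 to 2.93 in CTL, 3.24 to 5.11 in HUA and 2.68 to 2.90 in XZSW. Adssl1, the muscle form, ran from 1.64 to 3.06 FPKM in CTL, 1.73 to 3.03 in HUA and 1.61 to 4.02 in XZSW. Guk1, which phosphorylates GMP, ran from 14.0 to 19.8 FPKM in CTL, 12.6 to 26.8 in HUA and 11.7 to 16.5 in XZSW. Neither passed in any comparison.

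**Figure D3:**
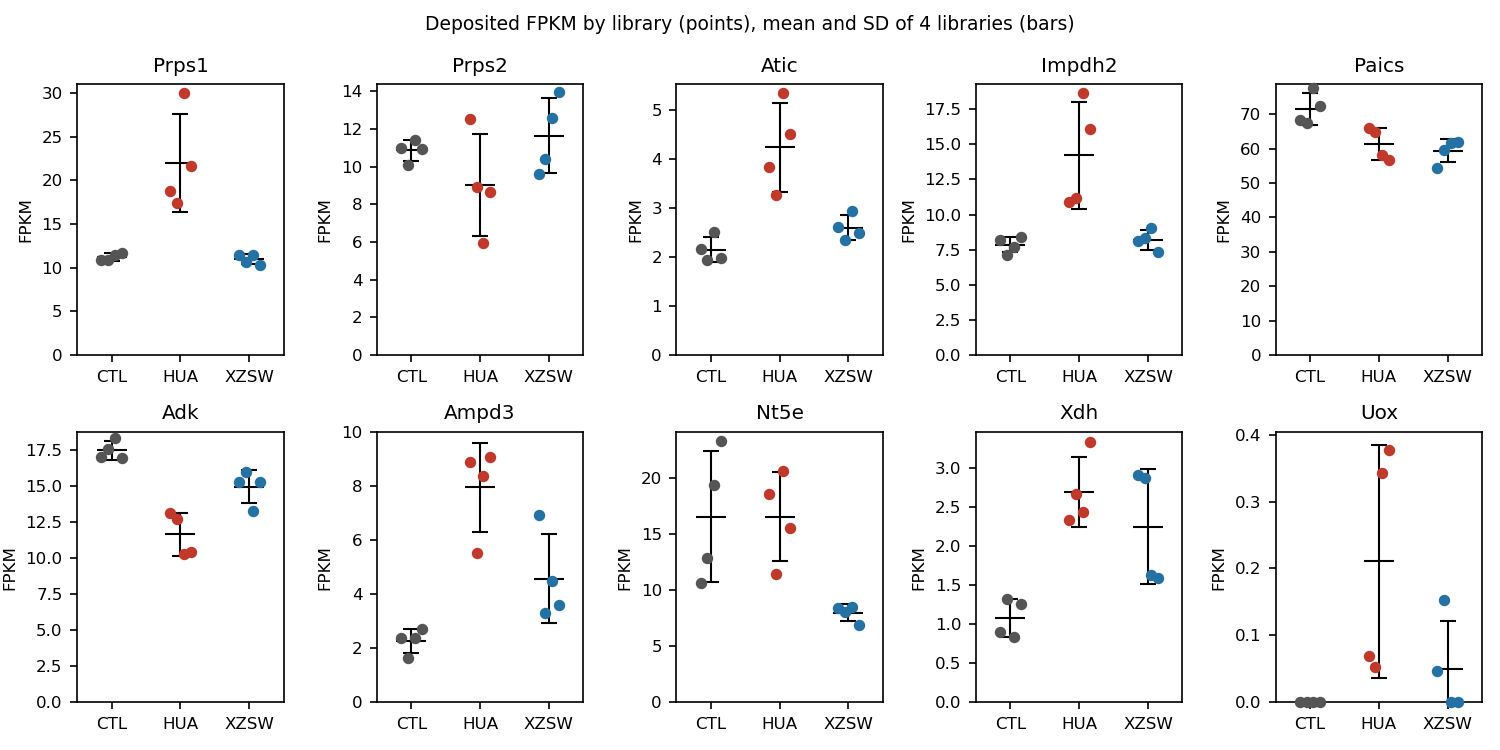
Deposited FPKM of 10 purine genes by group, 1 point per library with the mean and SD of 4 libraries. Prps1, Atic and Impdh2 are highest in HUA and back in or near the CTL range in XZSW, Adk runs the other way, and Nt5e is lowest in XZSW.

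**Figure D4:**
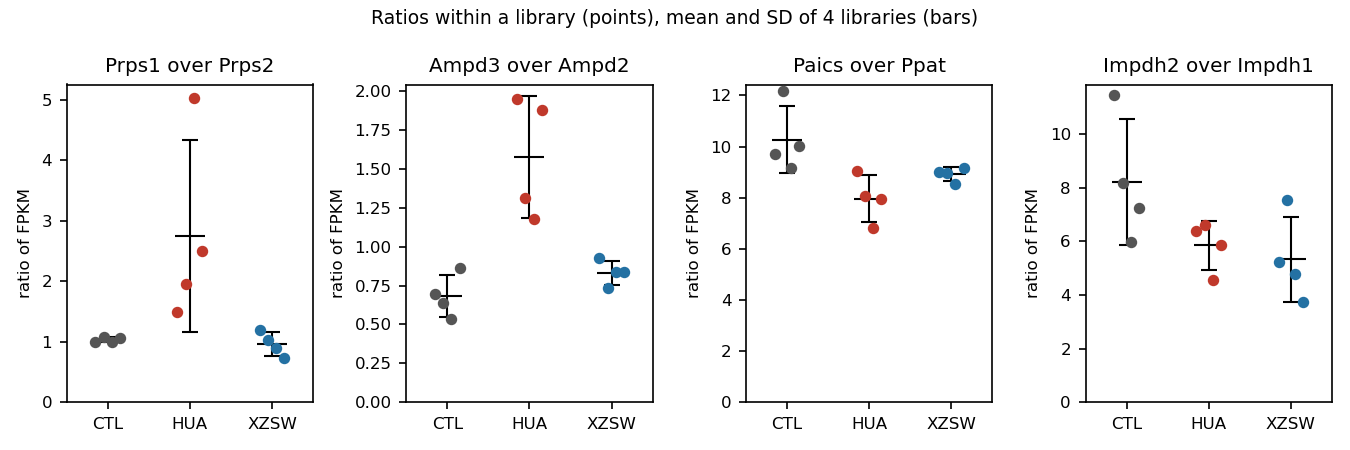
Ratios of deposited FPKM between pairs of purine genes in each library, by group. The Prps1 to Prps2 ratio was 0.993 to 1.07 in CTL and 1.50 to 5.04 in HUA.

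Of the 3 salvage enzymes Adk alone changed in HUA on the TMM scale, and it fell; under library totals Aprt was called as rising too. Adk (chr14:21052574-21448569), adenosine kinase, turns adenosine back into AMP and so removes it from the inside of the cell. It stood at 17.0, 17.6, 18.4 and 17.0 FPKM in CTL, 13.1, 12.7, 10.3 and 10.5 in HUA and 15.3, 16.0, 13.3 and 15.3 in XZSW. Every HUA library was below every CTL library, and each XZSW library lay above HUA and below CTL. Adk fell 1.91-fold in HUA (log2 change -0.93 ± 0.13 SE, adjusted p = 0.000418) and rose 1.40-fold in XZSW against HUA (log2 change 0.49 ± 0.13 SE, adjusted p = 0.0279). XZSW against CTL gave -0.45 ± 0.13 SE, with an adjusted p of 0.0691. The fall in HUA was called under each of the 23 alternatives. The rise in XZSW was lost without HUA3, HUA4, XZSW1, XZSW2 or XZSW4 (adjusted p = 0.054 to 0.0859). Under library totals it was 0.31 with adjusted p = 0.083 (alternatives ran from 0.00572 to 0.095).

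Hprt and Aprt rejoin free bases to PRPP. Hprt ran from 45.3 to 56.2 FPKM in CTL, 54.0 to 76.5 in HUA and 39.3 to 49.3 in XZSW, where every library was below every HUA library in FPKM but not on the TMM scale; the log2 change in XZSW against HUA was -0.41 ± 0.14 SE, adjusted p = 0.0742. Aprt ran from 20.2 to 24.8 in CTL, 21.2 to 48.9 in HUA and 20.9 to 40.5 in XZSW, and did not pass in any comparison.

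Apart from Uox, the largest fitted rise in HUA was that of an AMP deaminase. Ampd3 (chr7:110768206-110812405), known as the erythrocyte form and expressed in many tissues, converts AMP to IMP. It stood at 2.36, 1.66, 2.36 and 2.72 FPKM in CTL, 8.87, 5.52, 8.37 and 9.06 in HUA and 6.91, 3.29, 4.47 and 3.61 in XZSW. HUA and XZSW were above CTL in every library, and XZSW1 overlapped HUA. Ampd3 rose 2.75-fold in HUA (log2 change 1.46 ± 0.23 SE, adjusted p = 0.000696). The change in XZSW against HUA was -0.68 ± 0.23 SE (adjusted p = 0.0565) and in XZSW against CTL 0.78 ± 0.23 SE (adjusted p = 0.0654). In this fit XZSW thus differed beyond the threshold from neither group. Library totals, the GC split, DESeq2 and limma on log2(FPKM + 1) each called Ampd3 as falling against HUA and as rising against CTL. Summed erythroid markers were 391 to 573 FPKM in CTL, 25.3 to 265 in HUA and 85.4 to 745 in XZSW, lower in HUA than in CTL. Macrophage markers were 17.5 to 34.5, 138 to 230.4 and 32.0 to 63.6 FPKM in the same order, higher in HUA. The part of either set of markers in the Ampd3 changes was not tested.

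Ampd2, the form of liver and many other tissues, ran from 2.60 to 4.40 FPKM in CTL, 4.22 to 7.13 in HUA and 4.33 to 7.47 in XZSW and did not pass. The ratio of Ampd3 to Ampd2 was 0.537 to 0.865 in CTL, 1.17 to 1.94 in HUA and 0.733 to 0.925 in XZSW, above 1 in HUA libraries and below 1 in the rest. Ampd1 had counts of 0, 0, 0 and 12 in CTL, 0, 0, 0 and 5 in HUA and 36, 0, 0 and 4 in XZSW, and skeletal muscle markers summed to at most 1.09 FPKM in any library. Ada, adenosine deaminase, stayed between 0.291 and 1.18 FPKM over all libraries, and Gda, guanine deaminase, between 0.510 and 1.96; neither passed.

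Among the nucleotidases, Nt5e was set apart by a low level in XZSW. Nt5e (chr9:88327197-88372092), or CD73, is the cell-surface enzyme that releases adenosine from extracellular AMP. It stood at 10.6, 12.9, 19.4 and 23.3 FPKM in CTL, 18.6, 11.5, 20.6 and 15.5 in HUA and 8.44, 8.04, 8.52 and 6.88 in XZSW. CTL spread widely, HUA lay within that spread, and the XZSW libraries were below all others. Nt5e fell 1.90-fold in XZSW against HUA (log2 change -0.93 ± 0.23 SE, adjusted p = 0.0165) and 2.41-fold in XZSW against CTL (log2 change -1.27 ± 0.23 SE, adjusted p = 0.0147). Both calls held under each of the 23 alternatives. HUA against CTL gave -0.34 ± 0.23 SE (adjusted p = 0.29). In XZSW, proximal tubule markers were at 1660.3 to 1881 FPKM, within or near the CTL range of 1494 to 1862. Distal tubule and collecting duct markers were at 406 to 798 FPKM, above the CTL range of 297 to 361. On the TMM scale the median log2 change in XZSW against CTL was -0.34 for the proximal markers and 0.60 for the distal ones. The part of these markers in the Nt5e change was not tested.

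Nt5c (chr11:115490420-115491862), a cytosolic deoxynucleotidase, stood at 14.1, 9.84, 15.8 and 14.1 FPKM in CTL, 18.4, 35.8, 57.0 and 51.9 in HUA and 17.1, 15.4, 26.7 and 23.5 in XZSW. It rose 2.37-fold in HUA (log2 change 1.25 ± 0.29 SE, adjusted p = 0.00596), with HUA1 near CTL and HUA2, HUA3 and HUA4 far above. XZSW3 and XZSW4 were also above XZSW1 and XZSW2. The GC dependence of the libraries splits them in the same way, and with that split in the model the change was 0.50 with adjusted p = 0.163 (alternatives ran from 0.000174 to 0.163).

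Nt5c2 (chr19:46883317-46969568), the cytosolic nucleotidase that prefers IMP and GMP, stood at 6.29, 5.94, 8.13 and 7.53 FPKM in CTL, 11.7, 9.04, 10.7 and 9.56 in HUA and 6.82, 5.46, 7.64 and 7.19 in XZSW. The HUA libraries were above both other groups in FPKM. It fell 1.40-fold in XZSW against HUA (log2 change -0.48 ± 0.13 SE, adjusted p = 0.0244), a call lost without HUA3, XZSW1 or XZSW2 (adjusted p = 0.0525 to 0.0762); HUA against CTL gave 0.21 ± 0.13 SE and did not pass. Nt5c3 (chr6:56882400-56923932), a pyrimidine nucleotidase, stood at 8.70, 8.78, 10.9 and 9.04 FPKM in CTL, 6.79, 8.43, 8.90 and 10.5 in HUA and 7.11, 6.72, 8.79 and 9.77 in XZSW. Its groups overlapped in FPKM; the TMM-scaled change in HUA was -0.46 ± 0.15 SE (adjusted p = 0.0332), -0.13 with adjusted p = 0.566 (alternatives ran from 0.00336 to 0.61) under library totals, and not called without CTL1, CTL2, CTL3, CTL4, HUA1, HUA2, HUA3 or XZSW3 (adjusted p = 0.0505 to 0.102).

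Nt5c3b, a related enzyme, ran from 1.21 to 1.66 FPKM in CTL, 1.74 to 3.07 in HUA and 1.43 to 3.24 in XZSW. Entpd1, or CD39, which strips phosphates from extracellular ATP and ADP ahead of Nt5e, ran from 0.595 to 1.27, 0.832 to 2.60 and 0.969 to 1.38 FPKM. Neither passed in any comparison on the TMM scale. Under library totals both were called as rising in HUA against CTL, and limma on log2(FPKM + 1) called Nt5c3b there too.

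Nucleosides are split by Pnp, and Xdh then forms urate. Pnp (chr14:50931082-50953412) stood at 28.0, 28.8, 33.3 and 26.8 FPKM in CTL, 35.4, 43.8, 66.6 and 43.8 in HUA and 30.5, 29.0, 29.3 and 26.5 in XZSW. HUA was above both other groups in FPKM, HUA3 by the most. Pnp fell 1.50-fold in XZSW against HUA (log2 change -0.59 ± 0.17 SE, adjusted p = 0.0325), lost without HUA3, XZSW1, XZSW2, XZSW3 or XZSW4 (adjusted p = 0.0566 to 0.0842), and HUA against CTL gave 0.34 ± 0.17 SE (adjusted p = 0.152). Pnp has a near copy, Pnp2, and shares 718 exon bases on the same strand with Gm49342, so its counts carry some uncertainty in assignment. No counts were found for Gm49342, and a row of 0 was not told apart from a missing row.

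Xdh (chr17:73883895-73950196), xanthine dehydrogenase and the target of allopurinol, stood at 0.903, 1.32, 0.830 and 1.26 FPKM in CTL, 2.34, 2.67, 2.43 and 3.33 in HUA and 2.90, 2.87, 1.63 and 1.58 in XZSW. HUA and XZSW libraries were all above CTL in FPKM; on the TMM scale XZSW3 and XZSW4, at 15.5 CPM each, lay within the CTL range of 9.41 to 16.3 CPM. Xdh rose 1.95-fold in HUA (log2 change 0.96 ± 0.26 SE, adjusted p = 0.0136), and this held under each of the 23 alternatives. XZSW against HUA gave -0.12 ± 0.25 SE (adjusted p = 0.795; 95% interval -0.67 to 0.42), and XZSW against CTL 0.84 ± 0.26 SE (adjusted p = 0.0732). In FPKM XZSW1 and XZSW2 were near HUA, and XZSW3 and XZSW4 between HUA and CTL. Xdh was a low gene in whole kidney, with rank 28 of 34 by mean CTL FPKM.

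Uox (chr3:146570426-146632305), uricase, is the enzyme that oxonate blocks and is known from the liver. Its counts were 0, 0, 0 and 0 in CTL, 30, 19, 143 and 128 in HUA and 19, 62, 0 and 0 in XZSW, which corresponds to 0, 0, 0 and 0 FPKM in CTL, 0.0696, 0.0524, 0.343 and 0.377 in HUA and 0.0468, 0.153, 0 and 0 in XZSW. Every HUA library held counts and no CTL library did. Set against a floor of 3 counts over the CTL group, the pooled Uox level of HUA was 74.4-fold higher. This is a bound for the group and not for each library, as HUA3 and HUA4 held 143 and 128 of the 320 counts. The edgeR test called Uox as rising in HUA (log2 change 9.09, adjusted p = 0.0144), and 1 of 22 alternatives lost the call (adjusted p = 0.0516). The pooled level of XZSW was 21.6-fold above that floor, with counts in XZSW1 and XZSW2 only. XZSW against CTL did not pass in the edgeR test (adjusted p = 0.096). Summed hepatocyte markers were 67.7 to 78.7 FPKM in CTL, 23.8 to 49.7 in HUA and 47.2 to 101 in XZSW, lower in HUA than in CTL; 1 of the 8 markers was at 0 in HUA. The 8 did not move together: Ttr and Apoa2 fell and Serpina1c rose in HUA against CTL, and Serpina1c and Arg1 rose in XZSW against CTL, where the median log2 change of the 8 was 2.12. The part of these markers in the Uox counts was not tested. Urah, which handles the product of uricase, ran from 1.66 to 2.38 FPKM in CTL, 1.35 to 3.10 in HUA and 1.00 to 2.05 in XZSW and did not pass.

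By mean FPKM in CTL, the order of the purine genes began with Paics at 71.4 ± 4.65 (SD, n = 4) and Hprt at 51.7 ± 4.80, which did not overlap each other. Pnp followed at 29.2 ± 2.82, Aprt at 23.1 ± 2.04 and Adss at 19.4 ± 0.946. From Adk (17.5 ± 0.649) through Nt5e (16.6 ± 5.83) and Guk1 (16.5 ± 2.60) to Nt5c (13.5 ± 2.54), neighbours differed by less than the SD of at least 1 of them, except at the step from Guk1 to Nt5c. Prps1 (11.2 ± 0.416) and Prps2 (10.9 ± 0.559) differed by less than either SD. At the low end stood Xdh (1.08 ± 0.246), Impdh1 (1.01 ± 0.262), Entpd1 (0.928 ± 0.279), Ada (0.635 ± 0.237) and Gda (0.590 ± 0.144), whose ranges ran into those of their neighbours. Salvage by Hprt and Aprt was thus represented by more RNA per length than Ppat (7.06 ± 1.20), the committing step of de novo synthesis.

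Dependence of counts on GC content divided the 12 libraries. Over genes, log2 counts against the CTL mean changed by 0.220 to 0.343 per 10% GC in HUA2, HUA3, HUA4, XZSW3 and XZSW4, and by -0.0743 to 0.0492 in the 4 CTL libraries, HUA1, XZSW1 and XZSW2. CTL holds only libraries of the second kind, and its mean is the reference, so the CTL slopes cancel out by construction. That kind is not uniform: log2 counts changed by 0.131 to 0.263 per doubling of transcript length in HUA1, XZSW1 and XZSW2, against -0.0119 to 0.00965 in CTL and -0.0719 to 0.0716 in the 5 libraries of the first kind. Comparisons of HUA1, XZSW1 or XZSW2 with CTL below therefore still differ in length dependence. Nt5c was 0.14 (log2, TMM scale) above CTL in HUA1 and 1.48 above it in the mean of the other HUA libraries. For Aprt the same differences were -0.45 and 0.59, and for Nt5c3b -0.04 and 0.70. Transcripts of these genes hold 58.2%, 58.9% and 54.7% GC.

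Uox aside (counts of 0 in CTL), every member called in HUA against CTL differed from CTL in the same direction in both kinds of library. In HUA the kind with the flat GC slope is HUA1 alone. Prps1 differed from CTL by 0.41 in HUA1 and 0.65 in the others. Atic gave 0.50 and 0.64, Ampd3 1.65 and 1.38, Adk -0.75 and -1.01, and Xdh 0.81 and 1.04. Paics gave -0.44 and -0.61, Prpsap2 -0.69 and -0.47, Nt5c3 -0.79 and -0.37, and Gmps -0.21 and -0.45. Impdh2 (0.14 and 0.58) and Prps2 (-0.13 and -0.85) were nearer to CTL in HUA1. In XZSW against HUA within a kind, Prps1 differed by -0.61 and -0.97 and Nt5e by -1.02 and -0.93. Xdh differed by 0.46 in the kind with the flat GC slope and by -0.71 in the other, in opposite directions.

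With the split as a further term, 10 of 33 members changed in HUA against CTL (30.3%, against 23.9% of all genes), of which Ampd3, Atic, Prps1, Uox and Xdh rose (15.2%, against 12.8%) and Adk, Adsl, Nt5c3, Paics and Prpsap2 fell (15.2%, against 11.1%). Impdh1, Impdh2, Nt5c, Prps2 and Gmps lost their calls (adjusted p = 0.13 for Prps2 to 0.266 for Impdh1). In XZSW against HUA 10 changed (30.3%, against 18.3%), Adk and Pfas rising (6.06%, against 8.49%) and Ampd3 falling beside the other 7 (24.2%, against 9.86%). In XZSW against CTL 8 changed (24.2%, against 8.85%), Ampd3, Pfas and Xdh rising (9.09%, against 4.77%) and Gmps, Guk1, Nt5c3, Nt5e and Paics falling (15.2%, against 4.08%).

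**Figure D5:**
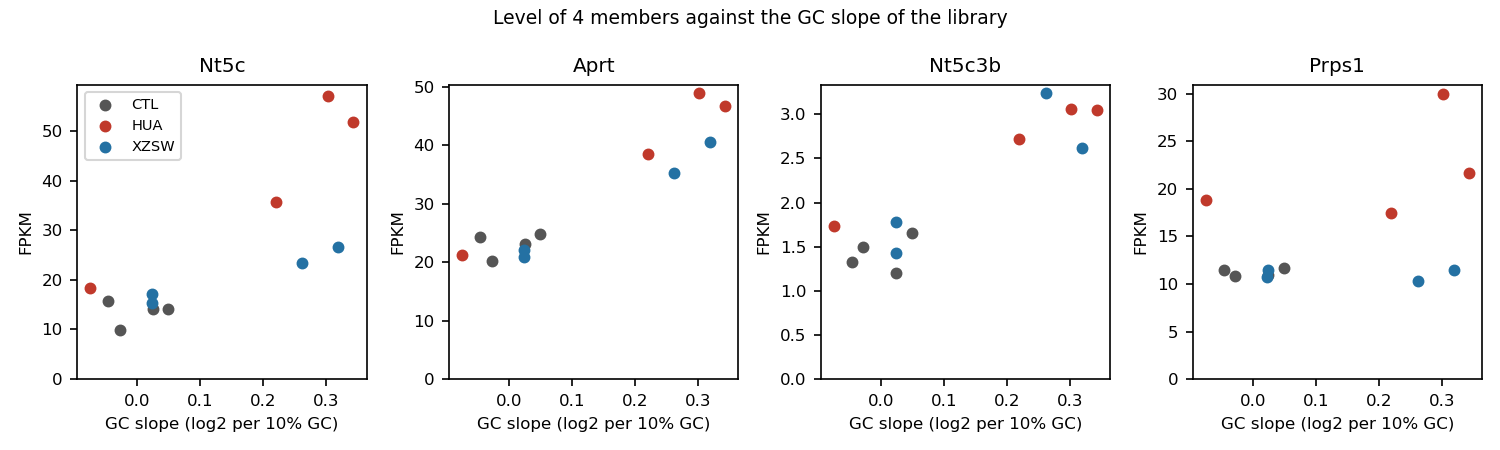
Deposited FPKM of Nt5c, Aprt, Nt5c3b and Prps1 in the 12 libraries against each library's GC slope (log2 counts per 10% GC, relative to CTL). Nt5c is between 35.8 and 57.0 FPKM in HUA2, HUA3 and HUA4 and 18.4 in HUA1, whereas Prps1 is above CTL in all 4 HUA libraries.

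Genes that feed or flank the pathway were taken from 9 lists of 88 genes, of which 86 were tested. In HUA against CTL 16 rose (18.6%, against 14.9% of all genes) and 29 fell (33.7%, against 12.8%). In XZSW against HUA 19 rose (22.1%, against 7.09%) and 9 fell (10.5%, against 8.34%), and in XZSW against CTL 2 rose and 2 fell (2.33% each, against 2.72% and 2.27%). Under library totals HUA against CTL had 24 that rose (27.9%, against 29.2%) and 19 that fell (22.1%, against 6.68%), XZSW against HUA 13 (15.1%, against 4.23%) and 16 (18.6%, against 13.7%), and XZSW against CTL 6 (6.98%, against 6.18%) and 1 (1.16%, against 1.13%). Counts of single lists below rest on 3 to 15 listed genes each. One-carbon units, which build the purine ring, come from serine and folate enzymes. Of the 14 listed, HUA against CTL had 4 that rose and 5 that fell, and the XZSW to HUA contrast 5 and 3. Shmt2, the mitochondrial serine hydroxymethyltransferase, fell 2.77-fold in HUA (log2 change -1.47 ± 0.24 SE, adjusted p = 0.000968), from 63.8 ± 5.69 FPKM (SD, n = 4) in CTL to 29.4 ± 12.3, and stood at 75.9 ± 8.71 in XZSW (against HUA, log2 change 1.50 ± 0.24 SE, adjusted p = 0.00223). Mthfd1, the cytosolic folate enzyme of many steps, fell by 1.20 on the log2 scale. XZSW exceeded HUA in Mthfd1 (log2 change 1.03 ± 0.22 SE, adjusted p = 0.0082). Psat1, an enzyme of serine synthesis, fell in that comparison (log2 change -1.55 ± 0.31 SE, adjusted p = 0.00621).

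Nearer to the nucleotides, 3 of 11 nucleotide kinases fell in HUA (12.8% of all genes). When XZSW was set against HUA 3 rose (7.09% of all genes), and Ak4 and Ak3 were among both. Ak4, a mitochondrial adenylate kinase, gave -2.17 ± 0.43 SE and 1.91 ± 0.42 SE as log2 changes in these comparisons. Of 11 further genes listed under ectonucleotidase families, 7 fell in HUA (12.8% of all genes) and 1 rose (14.9%). Enpp2 led those that fell (log2 change -1.72 ± 0.26 SE, adjusted p = 0.00055). In XZSW against HUA 4 rose (7.09% of all genes), led by Alpl, the tissue-nonspecific alkaline phosphatase (log2 change 1.03 ± 0.16 SE, adjusted p = 0.00187). The list follows gene families, and the action of each enzyme on extracellular purine nucleotides was not measured. Adora2b, a receptor for adenosine, rose 4.10-fold in HUA (log2 change 2.04 ± 0.48 SE, adjusted p = 0.00671) and fell 4.40-fold in XZSW against HUA (log2 change -2.14 ± 0.48 SE, adjusted p = 0.0108). Among nucleoside carriers, Slc29a2 rose and Slc29a3 fell in HUA (0.90 ± 0.24 SE and -0.90 ± 0.22 SE), and Slc29a1 rose in XZSW against HUA (0.87 ± 0.21 SE).

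Nt5c1a, a cytosolic AMP nucleotidase, had counts of 4, 0, 0 and 0 in CTL, 215, 108, 307 and 109 in HUA and 24, 25, 25 and 13 in XZSW. It rose in HUA (log2 change 6.83 ± 0.85 SE, adjusted p = 0.000158), fell in XZSW against HUA (log2 change -2.84 ± 0.64 SE, adjusted p = 0.0111) and rose in XZSW against CTL (log2 change 3.98 ± 0.83 SE, adjusted p = 0.0221). All its CTL counts came from CTL1, so the fitted changes against CTL depend on the prior count. Gmpr, which turns GMP back to IMP, rose in HUA (1.23 ± 0.31 SE) and fell in XZSW against HUA (-1.21 ± 0.31 SE). In deoxynucleotide supply, Dck, deoxycytidine kinase, rose 2.13-fold in HUA (log2 change 1.09 ± 0.22 SE, adjusted p = 0.00283). Of that list, 3 of 6 genes rose and 1 fell in HUA (14.9% and 12.8% of all genes).

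Xanthine dehydrogenase needs a molybdenum cofactor. Of 8 genes for the cofactor and for other molybdoenzymes, 4 fell in HUA (12.8% of all genes) while Xdh rose. Mocs2, a subunit of molybdopterin synthase, fell 2.04-fold (log2 change -1.03 ± 0.17 SE, adjusted p = 0.00102), Suox, sulfite oxidase, 2.46-fold (log2 change -1.30 ± 0.24 SE, adjusted p = 0.00159) and Mocs1 1.53-fold. Mocs2 and Suox rose in XZSW against HUA (0.86 ± 0.17 SE and 0.85 ± 0.23 SE). Mocos, which adds the sulfur that xanthine dehydrogenase requires, fell in XZSW against HUA (log2 change -0.64 ± 0.16 SE, adjusted p = 0.0164) and in XZSW against CTL (log2 change -0.59 ± 0.16 SE, adjusted p = 0.0476).

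In pyrimidine synthesis and salvage, 4 of 15 genes rose and 3 fell in HUA (14.9% and 12.8% of all genes). Ctps, CTP synthase, rose 2.87-fold (log2 change 1.52 ± 0.25 SE, adjusted p = 0.000812) and Cad, the enzyme of the first steps, 2.10-fold (log2 change 1.07 ± 0.24 SE, adjusted p = 0.00485). Both fell in XZSW against HUA, by 1.90 and 0.81 on the log2 scale. The 3 genes of pyrimidine breakdown all fell in HUA, Dpys, dihydropyrimidinase, by the most (log2 change -3.09 ± 0.57 SE, adjusted p = 0.00172), from 2.06 ± 0.381 FPKM in CTL to 0.304 ± 0.305; it stood at 1.94 ± 0.368 in XZSW and rose against HUA (log2 change 2.78 ± 0.56 SE, adjusted p = 0.00691).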

How the data were processed

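Kidney RNA of 12 libraries was read from 1 deposited table that gives raw counts and FPKM per gene, both made by the authors. The submitters' processing notes name cutadapt 1.9, HISAT2 2.2.1 and the build GRCm38; the counting tool, its strand setting and its annotation are not given in the sources used here. Columns were matched to libraries by the letter codes in the sample descriptions. Counts were tested with edgeR 4.0.16 (filterByExpr, TMM factors 0.856 to 1.15, quasi-likelihood F test on all 12 libraries, group as the only term, Benjamini-Hochberg over 19772 genes, threshold 0.05). Coordinates are those of GENCODE M21 (GRCm38), promoter windows those of RefSeq (GRCm38.p6). Alternatives were RLE factors, library totals, DESeq2 1.42.0, other filters, limma 3.58.1 on log2(FPKM + 1) or log2(FPKM + 0.1), only the 8 libraries compared, a replicate block, the GC split, each library left out, and, chosen after seeing the data, removal of GC and length trends. The code was tested on simulated counts. Members called at least once, with Xdh and Uox, are given library by library and other members by range; flanking genes are named only where called, at most the 3 smallest p per list and comparison. Some flanking genes that this rule names are not reported here. Members and lists were chosen with earlier results of these data known.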

Additional observations from a re-analysis of the deposited data

Results flagged for a closer look

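Nt5c3 stood at 10.9 FPKM in CTL3, apart from the other CTL libraries, which ran from 8.70 to 9.04 FPKM. It was marked because its gap to the nearest library, divided by the range of the group, was 0.846, above Dixon's 95% critical value for 4 samples. It was the 1 case among 53 groups of 4 libraries examined, and chance marks about 1 group in 20. Without CTL3 the log2 change of Nt5c3 in HUA against CTL was -0.40 with adjusted p = 0.102 (alternatives ran from 0.00336 to 0.61).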

How the results depend on the processing

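Across 23 alternatives, 461 of 574 values of the 25 called member changes kept direction and call, 113 lost the call and none changed sign. Calls held in every alternative for Ampd3, Xdh, Atic, Prps1 and Adk in HUA against CTL, Prps1 and Nt5e in XZSW against HUA, and Nt5e in XZSW against CTL. Leaving out 1 library gave, in HUA against CTL, 8 to 16 called, 6 to 11 rising and 2 to 6 falling; in XZSW against HUA, 3 to 12, 0 to 3 and 3 to 9; in XZSW against CTL, 1 to 4, 0 and 1 to 4. In HUA against CTL, 15 rose under library totals and 5 with the GC split (8 in the fit reported); 1 fell under library totals, 3 without a filter, 2 with limma on log2(FPKM + 1) and 1 on log2(FPKM + 0.1), against 6. In XZSW against HUA, fitting only the 8 libraries compared gave 2 called, 0 rising and 2 falling, against 8, 1 and 7; 0 rose under library totals and limma on log2(FPKM + 0.1), and 2 rose with DESeq2, the stricter filter, the replicate block, the GC split and the removal of GC and length trends. In XZSW against CTL (3 called, 0 rising, 3 falling), DESeq2 gave 7 called and 3 rising, no filter 1 called and 1 falling, the 8 libraries compared 10, 2 and 8, the GC split 8, 3 and 5, library totals 3 rising and 1 falling, limma 3 rising and 1 falling at either pseudocount, and the replicate block 1 rising. The cause of these shifts was not tested. A fit on the 8 libraries compared has fewer degrees of freedom and takes the spread from those libraries alone. The fit reported shares its estimate of the spread over all 12 libraries. That spread was unequal: chi-square of counts per degree of freedom between libraries of a group was 23.9 to 55.0 in CTL, 189 to 414 in HUA and 77.8 to 225 in XZSW. Replicate numbers were not taken as pairs, since the labels give them no shared source and only 2 of 12 same-numbered pairs correlated above 0.1 (range -0.0457 to 0.174); as a hint of pairing from the data, 9 of 12 libraries correlated best with their own number, which 2 of the 8 libraries in the other groups carry. With the replicate block, 13 members were called in HUA against CTL, 11 in XZSW against HUA and 3 in XZSW against CTL; Impdh2 in HUA against CTL (0.48 with adjusted p = 0.0576 (alternatives ran from 0.00282 to 0.189)) and Gmps in XZSW against CTL (-0.44 with adjusted p = 0.0575 (alternatives ran from 0.00462 to 0.301)) lost their calls. Depth limits only Uox and Ampd1 among the members, which had counts of 0 in several libraries.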
